A study of Rattus norvegicus with 12 samples.

Results

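The 10 genes described here encode the core of transforming growth factor beta (TGF-beta) signaling in the rat heart: the ligands Tgfb1, Tgfb2 and Tgfb3, the latency protein Ltbp1, the receptors Tgfbr1 and Tgfbr2, the signal carriers Smad2 and Smad3, the inhibitor Smad7, and Ccn2, a widely used target of the pathway. They were chosen by name, not by their values, and all 10 were found among the 34700 genes of the deposited table, with Ccn2 listed under its older symbol Ctgf. RNA was sequenced from the hearts of 12 male Sprague-Dawley rats, 3 in each of 4 groups, which were 8 weeks old at surgery and were examined 12 weeks later. In Sham rats the anterior descending coronary artery was not ligated. In HF rats it was ligated and the rats stayed sedentary. HFE rats had the same ligation followed by treadmill exercise of 60 min per day on 5 days per week for 8 weeks. BAIBA rats had the ligation and 8 weeks of gavage with the exercise-associated metabolite β-aminoisobutyric acid at 75 mg/kg per day. Per the methods, Sham and HF rats of the BAIBA experiment received an equal volume of water by gavage. Per the methods the tissue came from the anterior wall of the ventricle, but for BAIBA rats from around the infarct. The paper's results instead place both HF and BAIBA samples around the infarct, in that wall. By the first account region and treatment cannot be told apart in comparisons with BAIBA. By the second, region and ligation cannot be told apart in HF against Sham. The study's sources differ on who received BAIBA, as its supplement speaks of Sham as well as ligated rats and its methods and sample labels of ligated rats alone; the labels were followed.

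TGF-beta ligands are secreted in an inactive complex that latent binding proteins such as Ltbp1 tether to the extracellular matrix, and integrins or proteases release the active ligand. The active ligand binds the type II receptor, which switches on the type I receptor, which in turn phosphorylates Smad2 and Smad3. These join Smad4 and act on genes in the nucleus, among them Smad7, which closes the loop by blocking the receptor. In the infarcted heart the pathway is known for turning fibroblasts into matrix-producing myofibroblasts. Much of its control lies in ligand release and phosphorylation, which RNA levels do not measure.

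The libraries held between 14812541 and 19732588 counts, and the 10 genes had between 221 and 2461 counts in each rat and passed the filter on low counts in every comparison. The sample labels name the heart, and the left ventricle is named in the methods. In every rat 7 cardiomyocyte markers summed to between 40900 and 50080 CPM (counts scaled to the size of each library). The 4 atrial markers, with Nppa also among the infarct genes below, summed to between 12.3 and 538 CPM. These markers cannot tell the left ventricle from the right. In BAIBA against Sham all 4 atrial markers were lower, 3 at an unadjusted p under 0.05 by edgeR's quasi-likelihood test, beside 7.41% of all genes. Their lowest adjusted p was 0.0695. The summed level of 6 genes known to mark infarct heart failure was 4162 to 6305 CPM in Sham and 5743 to 6670 CPM in HF, so these groups overlapped. That sum is led by Ankrd1, at 3280 to 5528 CPM. Nppb, the gene of a natriuretic peptide, measured 46.4 to 131.8 CPM in Sham and 188.6 to 300.5 CPM in HF, higher with no overlap, whereas the collagen genes Col1a1 and Col3a1 were lower in HF with no overlap. Between these groups 11.8% of all genes did not overlap. The lowest edgeR adjusted p of the 6 genes was 0.709, so none passed the test. The library of BAIBA rat 1 stood apart. Its 8 macrophage markers summed to 1017 CPM against 107.6 to 247 CPM in the other 11 rats, with 7 of the 8 highest in it. Most of that sum was Lyz2, at 758.4 CPM against 34.4 to 118.5 CPM elsewhere, and without Lyz2 the sums were 259.0 CPM and 73.2 to 195.1 CPM. Its 5 epicardial and mesothelial markers summed to 83.4 CPM against 18.1 to 39.1 CPM elsewhere, with Upk3b at 0 in all 3 HFE rats. Its 8 fibroblast markers reached 1498 CPM, the highest of the 12, beside 1391 CPM in HF rat 3. Of these 8 markers, 4 were highest in BAIBA rat 1 and 3 in HF rat 3. In HFE rat 3 each of 7 immediate early genes was higher than in any other rat, with a sum of 867.7 CPM against 56.1 to 218.3 CPM. The part of these features in the results below was not tested. In bulk tissue, fewer cells of a type and less RNA per cell cannot be told apart.

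**Figure D1:**
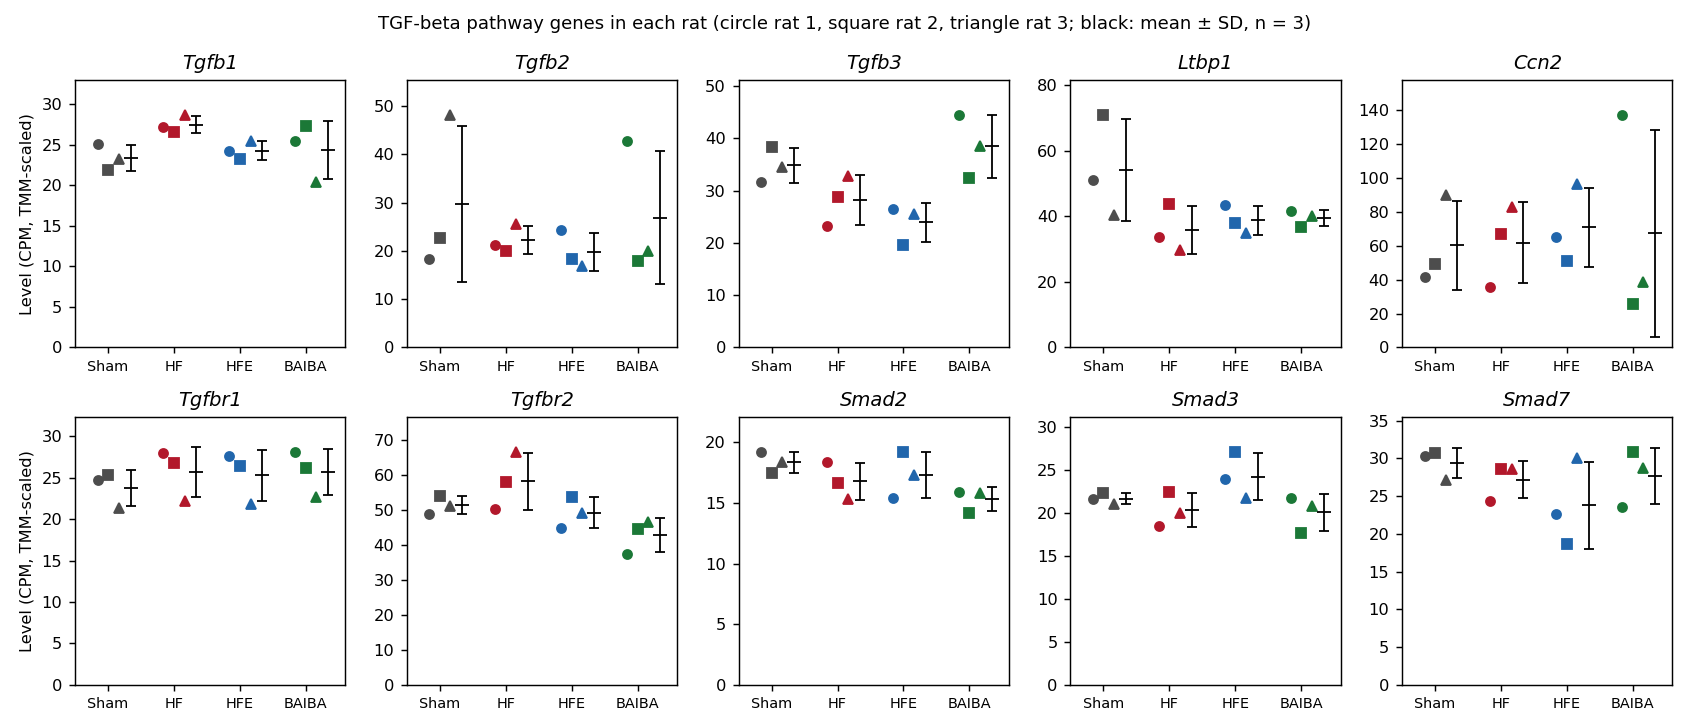
Level of each of the 10 genes (vertical axis, CPM with TMM scaling, from 0) in each rat, by group (horizontal axis), with the mean ± SD of 3 rats in black beside the points. Ccn2, Tgfb2, Tgfb3 and Ltbp1 spread most between rats, and BAIBA rat 1 holds the highest Ccn2 (137.3 CPM) and Tgfb3 (44.5 CPM).

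Measured per length, as FPKM averaged over the 12 rats, Ccn2 was the most abundant of the 10 at 24.1 ± 12.50 (SD, n = 12), followed by Tgfbr2 at 18.1 ± 2.34. Tgfb3 stood at 12.03 ± 3.01 and Tgfb1 at 11.6 ± 1.14 FPKM. Then came Ltbp1 at 6.76 ± 1.80 FPKM, Smad7 at 6.29 ± 0.858 and Smad2 at 5.84 ± 0.621. These mid-level genes were followed by Tgfb2 at 5.77 ± 2.55 FPKM, and by Tgfbr1 and Smad3, both at 4.29 FPKM with SDs of 0.527 and 0.476. Every pair of neighbours in this order overlapped in range. So did some genes further apart, as Ccn2 ranged from 9.13 to 54.5 FPKM and Tgfb2 from 3.74 to 11.4 FPKM. The order is one of means over the 12 rats and need not hold in a single rat. The step from Tgfbr2 down to Tgfb3 and that from Tgfb1 down to Ltbp1 were each present in 11 of the 12 rats. Ccn2 exceeded Tgfbr2 in 6 of 12.

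The genes also differed in how steady they were. The ratio of the highest to the lowest CPM over the 12 rats was 5.35 for Ccn2, 2.86 for Tgfb2, 2.39 for Ltbp1 and 2.26 for Tgfb3, whereas it was 1.32 for Tgfbr1 and 1.36 for Smad2. The median ratio of the 10 genes was 1.71, beside 1.82 over the 15617 genes tested. The secreted and matrix-bound members thus held the 4 widest ranges and the receptors and Smads lay between 1.32 and 1.78, with Tgfb1, a steady ligand at 1.41, as the exception.

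None of the 10 genes was called in any comparison by edgeR's quasi-likelihood test, where a call needed a Benjamini-Hochberg adjusted p under 0.05 over all genes and a log2 fold change beyond 1 in either direction. Few genes of any kind were called. The share of all tested genes called was 0% in HF against Sham, 0% in HFE against HF, 0% in BAIBA against HF, 0% in HFE against Sham, 0.0808% in BAIBA against HFE and 0.0402% in BAIBA against Sham. It was also 0% for HF, HFE and BAIBA together against Sham and for any difference among the 4 groups, a test with no limit on the fold. A count of 0 of 10 is read against these shares and is not a result about the 10 genes. DESeq2 likewise called 0 of the 10 in the 6 pairwise comparisons and in the contrast of the 3 ligated groups with Sham. It called 1, Tgfb3, for any difference among the groups, where it called 345 of 15617 genes, or 2.21%. Its share of all genes called was 0.16% in HF against Sham, 0.134% in HFE against HF, 0.18% in BAIBA against HF, 1.04% in BAIBA against HFE, 0.462% in BAIBA against Sham, 0.459% in HFE against Sham and 0.064% for the ligated groups together against Sham.

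At an unadjusted p under 0.05 by edgeR, 2 of the 10 genes passed in HF against Sham beside 6% of all genes, and 0 of 10 in HFE against HF beside 7.62%. In BAIBA against HF 2 of 10 passed beside 5.55%, and in BAIBA against HFE 1 of 10 beside 9.57%. For BAIBA against Sham the count was 2 of 10 beside 7.41%, and for HFE against Sham 2 of 10 beside 11.2%. In a list of 10 each gene makes up 10%, so counts of 0 to 2 are not read as a result about the list. With the 3 ligated groups together against Sham 1 of 10 passed beside 6.35%, and 3 of 10 passed for any difference among the groups beside 9.71%.

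Sizes were small. The median log2 fold change of the 10 genes was -0.11 in HF against Sham, -0.10 in HFE against HF, 0.01 in BAIBA against HF, 0.02 in BAIBA against HFE, -0.09 in BAIBA against Sham and -0.07 in HFE against Sham, beside medians over all genes between -0.01 and 0.01. No single log2 fold change of the 10 exceeded 1 in size. The 95% interval of the log2 fold change stayed within -1 and 1 for 7 of 10 genes in HF against Sham, 9 in HFE against HF, 8 in BAIBA against HF, 7 in BAIBA against HFE, 8 in BAIBA against Sham and 8 in HFE against Sham. For those genes these data bound a change to less than 2-fold in either direction, and for Ccn2 in every comparison they do not.

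**Figure D2:**
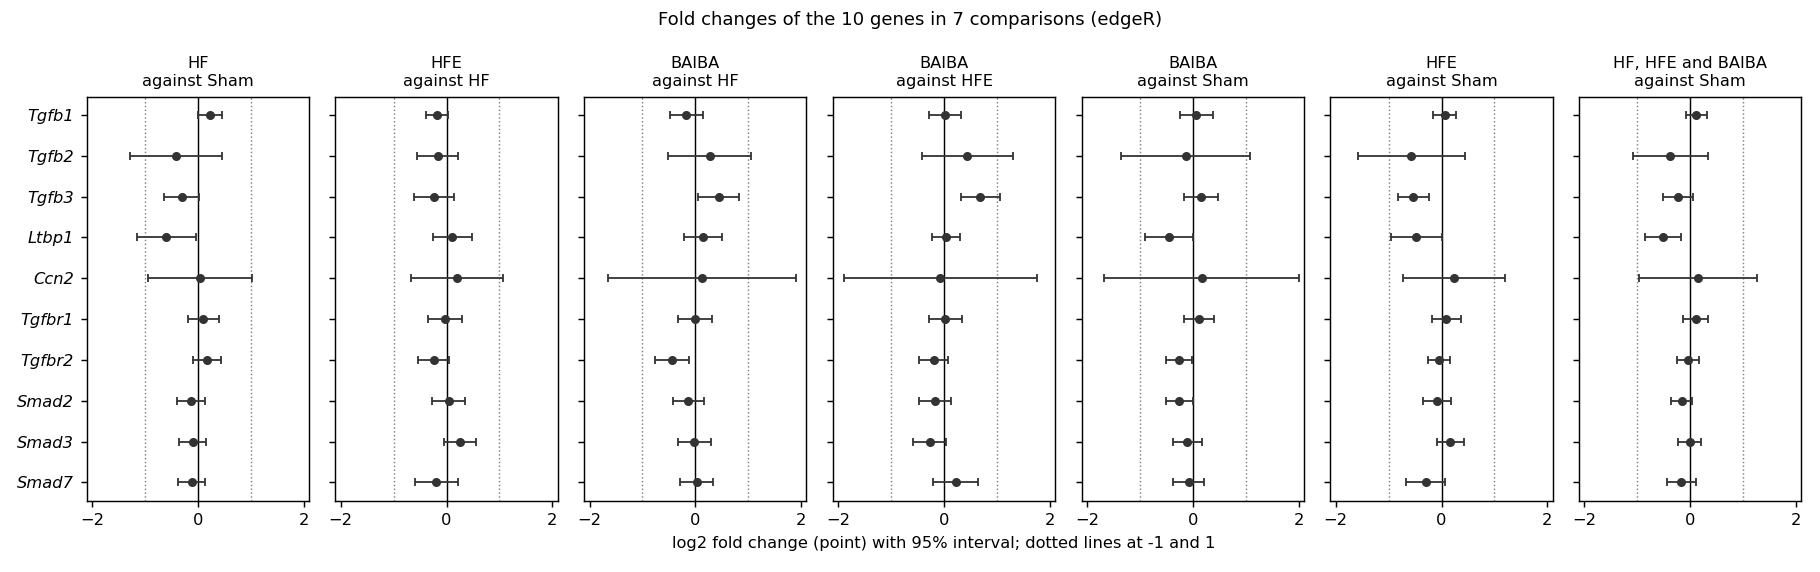
Log2 fold change of each gene (horizontal axis, point, with the 95% interval of edgeR's quasi-likelihood fit) in 7 comparisons (panels); dotted lines mark -1 and 1. Intervals are narrow for the receptors, the Smads and Tgfb1 and wide for Ccn2, and that of Tgfb3 in BAIBA against HFE runs from 0.32 to 1.06.

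Tgfb1 (ENSRNOG00000020652) encodes the ligand most studied in cardiac fibrosis. It measured 25.1, 21.9 and 23.2 CPM in Sham rats 1 to 3, 27.1, 26.6 and 28.7 CPM in HF rats, 24.2, 23.2 and 25.5 CPM in HFE rats, and 25.4, 27.3 and 20.4 CPM in BAIBA rats. All 3 HF rats lay above all 3 Sham rats and above all 3 HFE rats, by a narrow margin, while BAIBA rats spread across the other groups. The log2 fold change was 0.23 ± 0.10 (SE) in HF against Sham, with an edgeR adjusted p of 0.805. In HFE against HF it was -0.18 ± 0.09, with an adjusted p of 0.661. Both comparisons use the same HF rats, so they are not separate pieces of evidence. Such a separation of groups was no rarity, as 11.8% of all genes did not overlap between HF and Sham and 14.4% between HFE and HF, and of the 10 genes Tgfb1 was the single one in each. The difference did not pass the test.

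Tgfb2 (ENSRNOG00000002418), the ligand known for its role in the development of heart valves, measured 18.2, 22.8 and 48.2 CPM in Sham, 21.2, 20.1 and 25.5 CPM in HF, 24.3, 18.4 and 16.8 CPM in HFE, and 42.7, 17.8 and 19.96 CPM in BAIBA. Sham rat 3 and BAIBA rat 1 were far above the remaining 10 rats, which lay between 16.8 and 25.5 CPM in every group. All groups overlapped. The 95% interval of the log2 fold change in HF against Sham ran from -1.27 to 0.45.

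Tgfb3 (ENSRNOG00000009867) encodes the third ligand, which acts through the same receptors. Its levels were 31.7, 38.4 and 34.4 CPM in Sham, 23.3, 28.7 and 32.8 CPM in HF, 26.6, 19.7 and 25.6 CPM in HFE, and 44.5, 32.3 and 38.5 CPM in BAIBA. Each HFE rat lay below each Sham rat and each BAIBA rat, and HF rats lay in between and overlapped with all 3 other groups. The log2 fold change in BAIBA against HFE was 0.69 ± 0.16 (SE), with an adjusted p of 0.196 by edgeR's quasi-likelihood test, and the exact permutation test gave p = 0.1, the smallest that 3 against 3 rats allow. In that comparison 15.5% of all genes did not overlap. DESeq2 gave the same size, 0.69, with an adjusted p of 0.0187, which is past the threshold on p but short of the limit on the fold. Without BAIBA rat 1, the library with high macrophage markers, the log2 fold change was 0.56 with an edgeR adjusted p of 0.238, and without both that rat and HFE rat 3 it was 0.61 with an adjusted p of 0.216.

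In HFE against Sham the log2 fold change of Tgfb3 was -0.53 ± 0.13 (SE), with an adjusted p of 0.263 by edgeR and 0.0721 by DESeq2, and 17.7% of all genes did not overlap between these groups. For any difference among the 4 groups the adjusted p of Tgfb3 was 0.348 by edgeR and 0.0293 by DESeq2. It was the lowest of the 10 genes in this test by edgeR. The call on Tgfb3 therefore depended on the tool, and with edgeR's test no setting reached the threshold.

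The ligands can also be compared with each other per length. Of the summed FPKM of the 3 ligands, Tgfb3 made up 43.0% ± 5.59 (SD, n = 3) in Sham, 37.3% ± 3.25 in HF, 36.3% ± 2.70 in HFE and 45.7% ± 4.64 in BAIBA. Tgfb1 made up 35.5% ± 5.66, 44.8% ± 2.90, 45.4% ± 3.25 and 35.8% ± 6.93 in the same order. Tgfb3 stood above Tgfb1 in FPKM in all 3 Sham rats, in none of the 6 HF and HFE rats and in BAIBA rats 1 and 3. This order was noticed after the values were seen and has no test.

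Promoter sequence was taken from RefSeq (assembly GRCr8), which held an entry for all 10 genes. The 250 bases before the gene start were searched for the Smad box CAGAC (both strands, present in 42.9% of the 33469 rat promoters of that length), the TEAD element GGAATG (both strands, 12.1%), the cyclic AMP response element TGACGTCA (1.59%) and the TATA box TATAAA (sense strand, 8.06%). Matches were found for Ccn2 and Ltbp1 alone, and the other 8 genes held none of these letters in this window. The sequences of the 4 genes with the widest range between rats are shown 5′ to 3′ on the strand of the gene, with the matches in capitals. All 4 lie on the minus strand, at chr1:22624615-22624864 for Ccn2, chr13:100792686-100792935 for Tgfb2, chr6:111456947-111457196 for Tgfb3 and chr6:26177302-26177551 for Ltbp1.
Ccn2: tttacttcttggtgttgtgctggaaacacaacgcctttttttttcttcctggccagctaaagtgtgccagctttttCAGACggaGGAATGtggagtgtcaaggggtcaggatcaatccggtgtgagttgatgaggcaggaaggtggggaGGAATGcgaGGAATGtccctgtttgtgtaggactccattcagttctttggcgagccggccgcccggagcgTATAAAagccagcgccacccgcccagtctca
Ltbp1: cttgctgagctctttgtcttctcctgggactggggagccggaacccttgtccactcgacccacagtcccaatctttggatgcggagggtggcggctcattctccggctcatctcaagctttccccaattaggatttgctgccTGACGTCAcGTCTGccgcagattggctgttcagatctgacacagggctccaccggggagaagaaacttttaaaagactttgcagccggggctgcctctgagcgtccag
Tgfb2: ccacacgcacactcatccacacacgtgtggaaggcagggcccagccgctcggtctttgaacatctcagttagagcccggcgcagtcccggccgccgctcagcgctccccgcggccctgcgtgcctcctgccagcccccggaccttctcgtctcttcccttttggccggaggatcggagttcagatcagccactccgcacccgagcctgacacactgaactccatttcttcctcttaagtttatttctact
Tgfb3: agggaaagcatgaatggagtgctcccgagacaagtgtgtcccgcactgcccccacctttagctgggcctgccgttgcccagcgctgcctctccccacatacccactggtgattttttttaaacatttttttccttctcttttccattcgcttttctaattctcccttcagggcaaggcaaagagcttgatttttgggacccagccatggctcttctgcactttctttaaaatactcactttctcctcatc
The Ccn2 window held 1 Smad box that starts 174 bases before the gene start, 3 TEAD elements that start 166, 101 and 92 bases before it, and 1 TATA box 31 bases before it. The Ltbp1 window held 1 cyclic AMP response element at 108 bases and 1 Smad box, on the opposite strand, at 99 bases before the start. No matches overlapped. A match is a description of the letters and not a measured binding site.

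Ltbp1 (ENSRNOG00000033090) encodes the protein that tethers latent ligand to the matrix. Its levels were 51.1, 71.0 and 40.5 CPM in Sham, 33.8, 43.9 and 29.8 CPM in HF, 43.5, 37.9 and 34.8 CPM in HFE, and 41.7, 36.8 and 40.0 CPM in BAIBA. Sham rats 1 and 2 lay above all 9 ligated rats, while Sham rat 3 lay among them. With the 3 ligated groups together against Sham, the log2 fold change was -0.51 ± 0.16 (SE), the smallest unadjusted p of the 10 genes in that contrast, and the edgeR adjusted p over all genes was 0.740. Without Sham rat 2 the log2 fold change was -0.27, with an adjusted p of 0.993, so the size of the difference rests largely on that rat. None of the 10 genes separated the 9 ligated from the 3 Sham rats, beside 1.05% of all genes.

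Tgfbr1 (ENSRNOG00000007036), the type I receptor that phosphorylates Smad2 and Smad3, was the steadiest of the 10. It measured 24.8, 25.4 and 21.3 CPM in Sham, 28.0, 26.8 and 22.2 CPM in HF, 27.6, 26.4 and 21.8 CPM in HFE, and 28.1, 26.2 and 22.7 CPM in BAIBA. All groups overlapped over nearly their whole range. The 95% interval of its log2 fold change for the 3 ligated groups together against Sham was -0.13 to 0.34.

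Tgfbr2 (ENSRNOG00000013265), the type II receptor that binds the ligand first, measured 49.0, 54.1 and 51.3 CPM in Sham, 50.3, 58.0 and 66.7 CPM in HF, 45.0, 53.9 and 49.1 CPM in HFE, and 37.5, 44.8 and 46.5 CPM in BAIBA. The 3 BAIBA rats lay below all HF and all Sham rats, and HFE rat 1 fell within the BAIBA range. The log2 fold change was -0.44 ± 0.14 (SE) in BAIBA against HF, with an edgeR adjusted p of 0.852, where 11.4% of all genes did not overlap. In BAIBA against Sham it was -0.26 ± 0.11 with an adjusted p of 0.656, where 12.7% of all genes did not overlap. Without BAIBA rat 1 the log2 fold changes of Tgfbr2 were -0.35 (edgeR adjusted p 0.955) and -0.17 (adjusted p 0.718). Per length, Tgfbr2 exceeded Tgfbr1 in every rat, with a ratio of FPKM between 2.81 in BAIBA rat 1 and 6.32 in HF rat 3 and a median of 4.30. In each group this ratio rose from rat 1 to rat 2 to rat 3, and Tgfbr1 was lowest in rat 3. That pattern by rat number was noticed after the values were seen and was not tested.

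Smad2 (ENSRNOG00000018140) carries the signal from the activated receptor. It measured 19.2, 17.5 and 18.4 CPM in Sham, 18.4, 16.6 and 15.3 CPM in HF, 15.4, 19.2 and 17.3 CPM in HFE, and 15.95, 14.2 and 15.86 CPM in BAIBA. All BAIBA rats lay below all Sham rats and the other groups overlapped with both. The log2 fold change in BAIBA against Sham was -0.25 ± 0.11 (SE), with an edgeR adjusted p of 0.680. Together with Tgfbr2 it made 2 of 10 genes that did not overlap in that comparison, beside 12.7% of all genes.

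Smad3 (ENSRNOG00000008620), the partner of Smad2 that binds DNA directly, measured 21.7, 22.3 and 21.1 CPM in Sham, 18.5, 22.5 and 20.02 CPM in HF, 24.0, 27.1 and 21.7 CPM in HFE, and 21.8, 17.6 and 20.9 CPM in BAIBA. HFE rats 1 and 2 were the highest of the 12, and HFE rat 3 lay within the range of HF and just below BAIBA rat 1. No pair of groups was separated. The 95% interval of the log2 fold change in HFE against Sham ran from -0.08 to 0.42.

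Smad7 (ENSRNOG00000018359), the inhibitor that the pathway induces against itself, measured 30.4, 30.7 and 27.2 CPM in Sham, 24.4, 28.6 and 28.6 CPM in HF, 22.6, 18.7 and 30.0 CPM in HFE, and 23.6, 30.9 and 28.7 CPM in BAIBA. HFE rats 1 and 2 were the lowest of the 12, whereas HFE rat 3, the library with high immediate early genes, was near the top. All groups overlapped, and the interval in HFE against Sham ran from -0.68 to 0.07 on the log2 scale.

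Ccn2 (ENSRNOG00000015036), also known as connective tissue growth factor, is a secreted matrix protein that TGF-beta and mechanical load both induce. It measured 41.5, 49.1 and 90.2 CPM in Sham, 35.8, 66.7 and 82.8 CPM in HF, 65.1, 51.0 and 96.4 CPM in HFE, and 137.3, 25.7 and 38.7 CPM in BAIBA. The highest and the lowest of the 12 rats were both BAIBA rats, and every group spanned at least 1.89 times from its lowest to its highest rat. No group differed from another beyond this spread. The 95% interval in HF against Sham was -0.95 to 1.03 on the log2 scale, and intervals reached beyond -1 or 1 in every pairwise comparison. Without BAIBA rat 1 the log2 fold change of Ccn2 in BAIBA against HFE was -1.14 ± 0.33 (SE), with an edgeR adjusted p of 0.328, where it was -0.07 ± 0.71 with that rat. Ccn1, a relative of Ccn2 from the list of matrix genes, reached 354.1 CPM in HFE rat 3 and 99.99 CPM in HF rat 1, against 21.2 to 43.1 CPM in the other 10 rats, and it did not pass the test in any comparison.

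The relation between the ligands and both targets was examined within groups, after group means were removed from log2(CPM + 0.1), over 12 rats and 6 relations with an exact permutation within groups (two-sided). For Ccn2 with Tgfb3, r was 0.74 (exact p = 0.0216, adjusted over the 6 relations 0.109) and rho was 0.73 (exact p = 0.0216, adjusted 0.130). It remained at 0.65 without HFE rat 2 and BAIBA rat 1, the rats farthest from the median of Tgfb3. For Ccn2 with Tgfb2, r was 0.77 (exact p = 0.0363, adjusted 0.109) and rho was 0.69 (exact p = 0.0548, adjusted 0.154). That relation rested on Sham rat 3 and BAIBA rat 1, since r was 0.18 without them. Ccn2 with Tgfb1 gave r = 0.11 (exact p = 0.896, adjusted 0.896) and rho = 0.04 (exact p = 0.944, adjusted 0.944), and r was -0.25 without Sham rat 2 and BAIBA rat 3. None of the 6 relations passed after adjustment.

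For Smad7 with Tgfb2, r was -0.50 (exact p = 0.0725, adjusted 0.145) and rho was -0.52 (exact p = 0.0772, adjusted 0.154), and r was -0.20 without Sham rat 3 and BAIBA rat 1. For Smad7 with Tgfb3, r was 0.25 (exact p = 0.554, adjusted 0.686) and rho was 0.26 (exact p = 0.526, adjusted 0.670), and r was 0.24 without HFE rat 2 and BAIBA rat 1. For Smad7 with Tgfb1, r was 0.22 (exact p = 0.572, adjusted 0.686) and rho was 0.22 (exact p = 0.558, adjusted 0.670), but r was 0.80 without Sham rat 2 and BAIBA rat 3, so this value rests on which rats are included. The plot of Ccn2 against the ligands shows the rats that carry each relation.

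**Figure D3:**
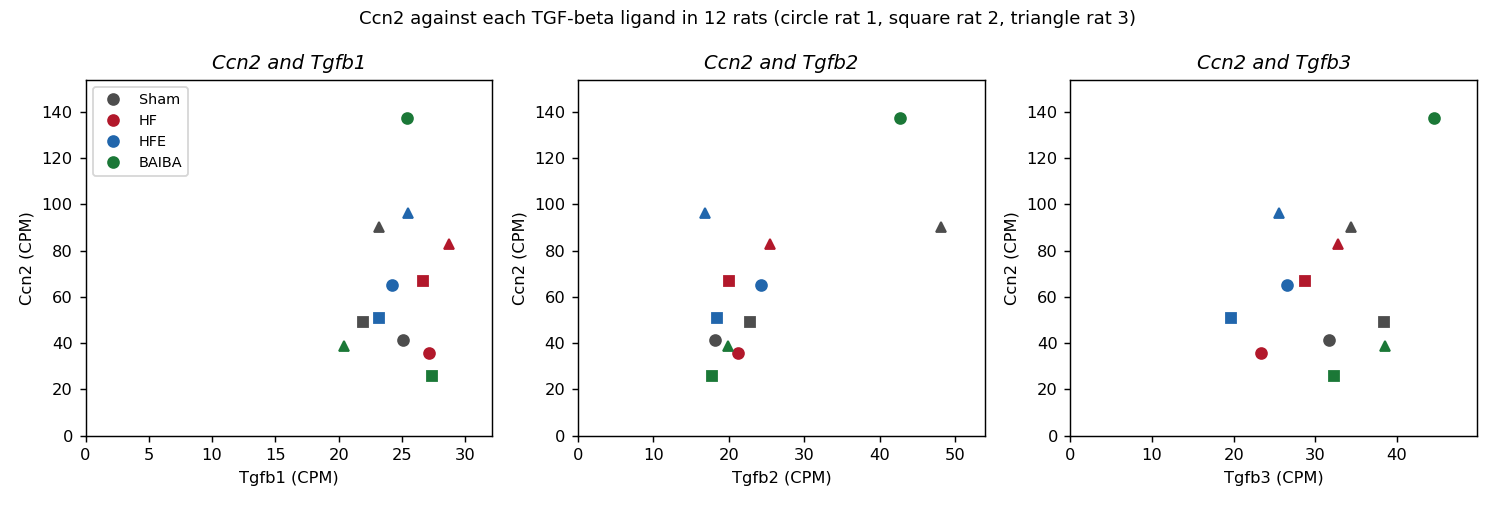
Ccn2 level (vertical axis, CPM) against Tgfb1, Tgfb2 and Tgfb3 (horizontal axes, CPM) in each of 12 rats, coloured by group. BAIBA rat 1 (137.3 CPM of Ccn2) is far above the others, and Sham rat 3 and BAIBA rat 1 hold the highest Tgfb2.

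The genes most like 5 of the members over the 12 rats, among 12570 with a symbol, are given as a description with no test, since the rats share groups and libraries. Tgfb1 was most like Arhgef3 (Pearson r of log2 CPM 0.89), Dtx2 (0.89) and Pip5k1c (0.86). Tgfb2 was most like Phlda3 (0.90), Slc8b1 (0.88) and Snx21 (0.86). The closest to Tgfb3 were Mgp, a matrix protein that restrains calcification, at r = 0.93, and March8 and Gdi2, both at 0.92. Smad7 paired with Stk35 (0.89), Rps6ka5 (0.88) and Atoh8 (0.87), and Ccn2 with Lmna, which encodes a nuclear lamin, at 0.92, with Bok at 0.91 and with Stmn4 at 0.90. No other member of the pathway was among these genes.

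The rest of the pathway was described by 5 lists of 54 genes in all. The edgeR test called 0 of them in each of the 6 pairwise comparisons, for the 3 ligated groups together against Sham, and for any difference among the groups. DESeq2 called 1 of the 54 in HF against Sham, 1 in HFE against Sham and 0 in the other comparisons. At an unadjusted p under 0.05 the list of 14 matrix and myofibroblast genes had 4 of 13 tested genes in HF against Sham (1 higher, 3 lower) and 6 of 13 in HFE against Sham, all 6 lower, beside 6% and 11.2% of all genes. Its median log2 fold change was -0.26 in HF against Sham and -0.28 in HFE against Sham. Marker lists of other cells were measured beside it. All 8 macrophage markers had a log2 fold change below 0 in HFE against Sham, 7 of them at an unadjusted p under 0.05, with a median of -0.68 and sums of 107.6 to 161.0 CPM in HFE against 202.7 to 247 CPM in Sham. All 8 fibroblast markers lay below 0 too, 3 of them at an unadjusted p under 0.05, with a median of -0.30 and sums of 878.9 to 1207 CPM in HFE against 1110 to 1171 CPM in Sham. None of these markers was called, and their part in the values of the matrix genes was not tested. Genes outside the naming rule are given here because another tool called them or because they had the smallest p, and they were chosen after their values were seen.

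Fn1, which encodes the matrix protein fibronectin, measured 47.4, 76.7 and 58.1 CPM in Sham, 32.2, 36.3 and 50.1 CPM in HF, 31.2, 26.9 and 25.2 CPM in HFE and 187.1, 42.9 and 65.9 CPM in BAIBA. Each HFE rat was below each rat of the other 3 groups, and HF overlapped with Sham. For Fn1 the log2 fold change in HFE against Sham was -1.12 ± 0.18 with an adjusted p of 0.129 by edgeR and 5.85e-06 by DESeq2, and in BAIBA against HFE it was 1.83 ± 0.59 with an edgeR adjusted p of 0.431. Without BAIBA rat 1 the latter was 0.97 ± 0.19 with an edgeR adjusted p of 0.129, so its size rests largely on that rat. In HF against Sham Fn1 had a log2 fold change of -0.62 ± 0.22 (edgeR adjusted p 0.805).

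Among the collagens, Col1a1 measured 164.5, 176.2 and 141.0 CPM in Sham and 104.4, 114.8 and 108.2 CPM in HF, with no overlap, beside 11.8% of all genes. Its log2 fold change was -0.56 ± 0.11 (SE), with an edgeR adjusted p of 0.709. Col3a1, one of the 3 matrix genes with the smallest p for the ligated groups together against Sham, had a log2 fold change of -0.27 ± 0.18 in that contrast with an adjusted p of 0.838, and Col5a1 had -0.18 ± 0.13 with the same adjusted p. The third, Ccn1, had 1.29 ± 0.76 and an adjusted p of 0.830, and 0.66 ± 0.41 without HFE rat 3, with an edgeR adjusted p of 0.849. BAIBA rat 1 held the highest Col1a1 (235.1 CPM) and Col3a1 (830.6 CPM) of the 12 rats.

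In the list of 12 latency and activation genes, the smallest p for the ligated groups together against Sham belonged to Itgb6, an integrin subunit that releases active ligand (log2 fold change 1.43 ± 0.67, adjusted p 0.800), Furin, the protease that cleaves the ligand precursor (-0.15 ± 0.07, adjusted p 0.801), and Emilin1, a matrix protein that binds the precursor (-0.37 ± 0.21, adjusted p 0.822), all by edgeR. Itgb6 was low, between 0.131 and 4.07 CPM. Emilin1 measured 31.7, 20.1 and 20.9 CPM in BAIBA against 33.4 to 49.9 CPM in HFE and 33.6 to 49.5 CPM in Sham, so BAIBA rats lay below both groups. Itgb5, another activating integrin subunit, did so too at 26.2, 20.01 and 23.8 CPM, against 32.9 to 39.4 CPM in HFE and 32.4 to 36.6 CPM in Sham. They were the 2 of 12 list genes without overlap in each comparison, beside 15.5% of all genes against HFE and 12.7% against Sham. This is near the share of all genes and is not read as a result about the list. For Itgb5 the log2 fold change in BAIBA against HFE was -0.62 ± 0.13 with an edgeR adjusted p of 0.176.

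In the list of 10 co-receptors and related receptors, 3 had an unadjusted p under 0.05 for the ligated groups together against Sham, beside 6.35% of all genes. Acvrl1, an endothelial type I receptor, had a log2 fold change of 0.25 ± 0.09 (adjusted p 0.755), Acvr2b, an activin receptor, -0.58 ± 0.26 (adjusted p 0.780) and Tgfbr3, the co-receptor betaglycan, -0.19 ± 0.09 (adjusted p 0.780), all by edgeR. Acvr2b measured 1.5 to 1.82 CPM in Sham and 0.599 to 1.28 CPM in the 9 ligated rats, with no overlap, at a low level. It was 1 of 10 in this list, beside 1.05% of all genes. Acvrl1 measured 53.8 to 65.7 CPM in Sham and 63.0 to 81.7 CPM in the ligated rats.

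Of the 11 tested Smads and Smad regulators, 0 had an unadjusted p under 0.05 for the ligated groups together against Sham. The smallest p values there belonged to Pmepa1, a feedback inhibitor (log2 fold change 0.30 ± 0.23, adjusted p 0.849), Smurf2, a ubiquitin ligase for receptors and Smads (0.12 ± 0.09, adjusted p 0.861) and Smad4, the shared partner (-0.06 ± 0.07, adjusted p 0.927). Smad4 measured 25.2 to 30.1 CPM over all 12 rats. In the list of 6 ligand-binding proteoglycans and follistatins the values were 0.11 ± 0.14 for Dcn (adjusted p 0.927), 0.25 ± 0.55 for Fst (adjusted p 0.962) and 0.14 ± 0.47 for Fmod (adjusted p 0.980). The summed level of these 6 genes was 727.4 to 795.8 CPM in Sham and 834.0 to 969.1 CPM in BAIBA, with no overlap, while HF and HFE overlapped with Sham. Most of that sum was Dcn, at 520.5 to 560.8 CPM in Sham and 602.4 to 704.6 CPM in BAIBA. Dcn was the 1 of 6 genes without overlap between these groups, beside 12.7% of all genes. The separation of the sums is therefore not read as a result about the list.

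**Figure D4:**
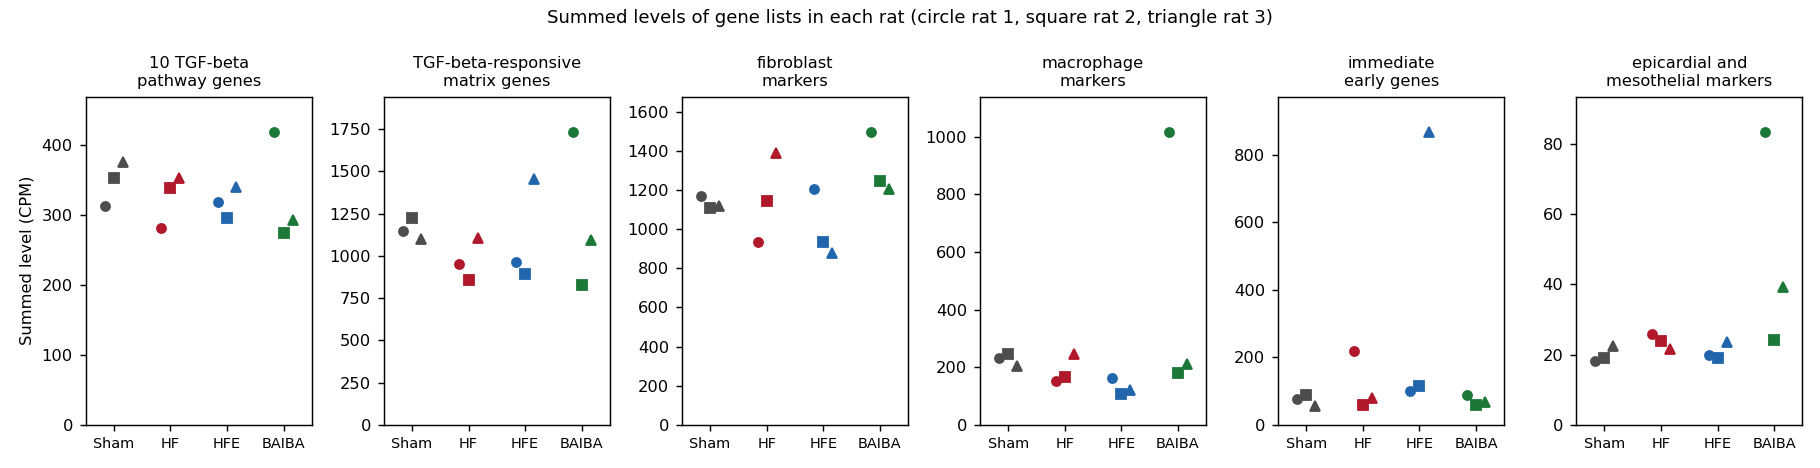
Summed level (vertical axes, CPM, from 0) of the 10 genes, of the pathway's matrix genes and of 4 marker lists in each rat, by group (horizontal axes). BAIBA rat 1 is highest for the 10 genes (418.5 CPM), the matrix genes (1735 CPM), and the fibroblast, macrophage and epicardial markers, and HFE rat 3 is highest for immediate early genes (867.7 CPM).

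The 10 genes summed to 312.6 to 375.7 CPM in Sham, 280.8 to 352.4 CPM in HF, 295.6 to 339.0 CPM in HFE and 273.6 to 418.5 CPM in BAIBA, with overlap between all groups. The highest sum was in BAIBA rat 1, and the other BAIBA rats were at 273.6 and 292.2 CPM, which was below all Sham rats.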

How the data were processed

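RNA from the hearts of 12 rats was sequenced by the authors from paired-end mRNA libraries. Per the methods, reads were aligned with HISAT2, genes were assembled with StringTie and Gffcompare, and reads were counted with featureCounts. The deposited counts are whole numbers per gene without normalization, and the authors divided these by gene length and library size to give the deposited FPKM values. The submitters' processing notes name the mouse build mm9, whereas the identifiers are rat Ensembl genes; versions, annotation and strand setting are not given in the sources used here. No value column belonged to another sample. Of 34700 genes, 32623 had an Ensembl identifier and 2077 did not. Columns with the authors' fold changes and p-values were not used. Groups came from the sample labels, which name 4 conditions although the design text counts 3; a replicate number names a different animal in each group.

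All tests on counts used edgeR 4.0.16 under R 4.3.3 (TMM, filterByExpr, robust quasi-likelihood test, Benjamini-Hochberg adjustment over all genes tested), each pair of groups fitted alone and the other contrasts on all 12 rats. Standard errors were obtained from the log2 fold change and its F statistic. CPM used TMM factors over 12 rats. The procedure was tested on simulated counts. The depth was 14812541 to 19732588 counts per rat. Over all genes past the filter, same-numbered rats deviated together, with every correlation over 0.1, in BAIBA against HFE alone (0.118 to 0.224, and -0.079 to 0.125 elsewhere). The fit was therefore repeated with the replicate number as a block. Further alternatives were DESeq2 1.42.0, RLE or library-size scaling, other filters, a fit of all rats, no fold limit, genes without an Ensembl identifier left out, limma 3.58.1 on log2(FPKM + 1) and log2(FPKM + 0.1), each rat left out, and, chosen after seeing the data, BAIBA rat 1 and HFE rat 3 both left out.

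All 10 genes are named. Full statistics are given where all 3 rats of a group fell beyond those of another, and, for contrasts over 12 rats, for the 3 genes with the smallest p. From the lists, the 3 genes with the smallest p for the ligated groups against Sham are named, and exceptions are marked. The genes and lists were chosen with earlier results of these data known. The values of 1 gene of the pathway lists are not reported here.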

Additional observations from a re-analysis of the deposited data

How the results depend on the processing

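The count of the 10 genes called stayed at 0 in all but 1 of 156 fits over 8 comparisons. The exception was DESeq2 for any difference among the 4 groups, with 1 call, Tgfb3, at an adjusted p of 0.0293. In the main fits no log2 fold change of the 10 exceeded 1 in size, so the fold limit alone kept those counts at 0. Whatever the fold, only Tgfb3 with DESeq2 had an adjusted p under 0.05, in that test and in BAIBA against HFE (0.0187). The cause of this difference between tools was not tested. With the replicate block, the pairing by number gave Tgfb3 a log2 fold change of 0.69 in BAIBA against HFE with an adjusted p of 0.0554, beside 0.196 without the block. It left the count of the 10 genes called at 0 in all 8 comparisons and changed no other call on them or on the pathway lists. The block moved the count of all genes called from 12 to 32 in BAIBA against HFE, from 0 to 1 in HFE against Sham and from 0 to 5 for any difference. DESeq2 called 24 genes in HF against Sham, 20 in HFE against HF, 27 in BAIBA against HF, 155 in BAIBA against HFE, 69 in BAIBA against Sham, 68 in HFE against Sham, 10 for the ligated groups against Sham and 345 for any difference, where edgeR called 0, 0, 0, 12, 6, 0, 0 and 0. Leaving out each rat in turn gave 0 to 4, 0, 0 to 4, 3 to 20, 4 to 16, 0 to 4, 0 to 1 and 0 to 10 calls in the same order.

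Directions of the log2 fold changes given in full for the 10 genes held under every setting run, except that of Ccn2 in BAIBA against HFE, which was near 0 and changed sign with library-size scaling alone and without HFE rat 3, BAIBA rat 2 or BAIBA rat 3. For Tgfb3 in BAIBA against HFE they ran from 0.56 to 0.80 with a rat left out, for Tgfb3 in HFE against Sham from -0.62 to -0.42, and for Ltbp1 in the ligated groups against Sham from -0.67 to -0.27. With a rat left out, r ranged from -0.14 to 0.64 for Ccn2 with Tgfb1 (negative without BAIBA rat 1 or 3), from 0.57 to 0.87 for Ccn2 with Tgfb2 (adjusted p 0.0278 without HFE rat 3), from 0.66 to 0.82 for Ccn2 with Tgfb3 and from -0.14 to 0.57 for Smad7 with Tgfb3 (negative without HFE rat 2). Thbs1 and Emilin1 of the pathway lists were called by edgeR in BAIBA against HFE only with BAIBA rat 1 and HFE rat 3 both left out. Their log2 fold changes were then -1.49 and -1.13, with adjusted p of 0.0458 and 0.0188. That fit, chosen after seeing the data, had 1 rat fewer in each group. With all rats Emilin1 had -0.75 with an edgeR adjusted p of 0.305. Settings other than a single rat left out called 2 to 155 of all genes in this comparison. With 3 rats a group, the 95% interval of Ccn2 reached beyond -1 or 1 on the log2 scale in every pairwise comparison.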

Other observations

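Marker lists of other cell types were measured in the same libraries. The 7 cardiomyocyte markers found summed to 48050 to 50080 CPM in Sham and to 40900 to 43140 CPM in HF, with no overlap, while HFE (41630 to 47380 CPM) lay below Sham too and BAIBA (41120 to 48760 CPM) overlapped with all 3 other groups. The lower sums rested on Myh6, which encodes the alpha myosin heavy chain, at 17420 to 19600 CPM in Sham, 11250 to 13880 CPM in HF and 9127 to 13300 CPM in HFE. Without Myh6 the sums were 29730 to 30630 CPM in Sham, 29260 to 30100 CPM in HF and 32510 to 36210 CPM in HFE. The 7 endothelial markers found summed to 658.6 to 724.1 CPM in Sham, 700.9 to 907.4 CPM in HF, 770.5 to 902.6 CPM in HFE and 549.0 to 800.1 CPM in BAIBA, so every HFE rat lay above every Sham rat. The 6 smooth muscle markers overlapped between all groups, from 227.9 to 425.9 CPM. The 4 platelet markers were at 13.8 CPM in BAIBA rat 1 and between 5.73 and 8.47 CPM in the other 11 rats. None of these sums was tested.

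Ltbp2, a relative of Ltbp1 in the fibrillar matrix, reached 47.9 CPM in BAIBA rat 1 and lay between 2.08 and 15.5 CPM in the other 11 rats. Ltbp1 itself did not share this peak and was at 41.7 CPM in that rat. Ltbp2 was chosen after its values were seen.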
